A study of Mus musculus with 6 samples.

Results

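The genes described here encode 10 enzymes of amino acid synthesis and mitochondrial folate metabolism, taken by name from the 54532 genes of a table of raw read counts. They are *Phgdh*, *Psat1* and *Psph* for serine, *Shmt2*, *Mthfd2*, *Mthfd1l* and *Aldh1l2* for mitochondrial folate, *Asns* for asparagine, and *Aldh18a1* and *Pycr1* for proline. Poly A RNA was sequenced from mouse hearts dissected at embryonic day 9.5 (E9.5), with 3 libraries of the *Smyd1-KO* genotype and 3 of the WT genotype. Each library is called a heart below, though the sources used here do not say whether hearts were pooled for RNA. *Smyd1-KO* embryos carry 2 mutated *Smyd1* alleles, derived from a *Smyd1*+/− strain, and *Smyd1* encodes a histone methyltransferase of heart and skeletal muscle. Both sexes were used, and the comparison asks how transcripts differ between the genotypes at this age.

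Serine is made from the glycolytic intermediate 3-phosphoglycerate, and its side chain carbon can be passed to folate in the mitochondrion, which exports it as formate for nucleotide synthesis. Asparagine is made from aspartate with nitrogen from glutamine, and proline is made from glutamate by way of pyrroline-5-carboxylate. Many of these genes are known targets of the transcription factor ATF4, which acts in the integrated stress response, a shared response of cells to amino acid shortage, mitochondrial stress and other insults.

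In the mouse genome build GRCm38, GENCODE places *Phgdh* (ENSMUSG00000053398) at chr3:98313170-98339990, *Psat1* (ENSMUSG00000024640) at chr19:15904678-15947337, *Psph* (ENSMUSG00000029446) at chr5:129765558-129787449, *Shmt2* (ENSMUSG00000025403) at chr10:127517123-127522444, *Mthfd2* (ENSMUSG00000005667) at chr6:83305691-83325908, *Mthfd1l* (ENSMUSG00000040675) at chr10:3973118-4167081, *Aldh1l2* (ENSMUSG00000020256) at chr10:83487450-83534140, *Asns* (ENSMUSG00000029752) at chr6:7675169-7693254, *Aldh18a1* (ENSMUSG00000025007) at chr19:40550257-40588463 and *Pycr1* (ENSMUSG00000025140) at chr11:120635712-120643769. *Mthfd1l* is on the forward strand and the others are on the reverse strand.

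Each heart had between 48627825 and 64217529 counts on genes, and all 10 genes passed edgeR's filter on low counts, which kept 19372 genes. Values per heart are CPM, the counts of a gene scaled to a library of one common size, with edgeR's TMM factors applied. A gene was called upregulated or downregulated when edgeR's quasi-likelihood test gave an adjusted *P* (Benjamini-Hochberg) below 0.05 and the log2 fold change reached 0.5 in either direction. Standard errors (SE) are on the log2 scale. *Smyd1* itself stood at 101, 222 and 206 CPM in the mutants (hearts 1, 2 and 3) against 414, 379 and 270 CPM in the WT. Every *Smyd1-KO* heart was below every WT heart, in the direction of the labels, but reads remained in all 3, and the log2 fold change of -1.01 was not called (SE 0.30, edgeR adjusted *P*=0.0973). The authors, who used DESeq2, report *Smyd1* as significantly lower in their mutant hearts.

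*Smyd1-KO* heart 1 stood apart in its cell type markers. The summed expression of 12 cardiomyocyte markers was 9696 CPM in this heart, 20167 and 20315 CPM in the other mutant hearts, and 21986, 20120 and 12911 CPM in WT hearts 1, 2 and 3. *Actc1* was the most abundant of them, 0 of the 12 were at 0 in any heart, and 0 were called by edgeR or DESeq2, with 1 lower at an unadjusted *P* under 0.05 by edgeR. The sum of 7 neural and neural crest markers, led by *Sox2*, was 189 CPM in *Smyd1-KO* heart 1, against 63.1 and 15.5 CPM in the other mutant hearts and 29.4 to 49.7 CPM in WT hearts. Each heart is a mixture of cells, so a change in the number of cells of a type and a change in RNA per cell cannot be told apart.

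Of the 10 enzymes, edgeR called 6 upregulated and 0 downregulated in *Smyd1-KO* hearts, where 2.86% of all tested genes were called upregulated and 1.42% downregulated. The 6 were the 4 mitochondrial folate genes, *Asns* and *Pycr1*. All 10 log2 fold changes were positive, with a median of 0.86, against a median of -0.00255 over all tested genes, of which 9641 were positive. In 8 of the 10 every *Smyd1-KO* heart was above every WT heart, a separation found in 15.9% of tested genes. DESeq2 called the same 6, with 5.94% of its tested genes called upregulated. limma voom called 4 of them, not *Mthfd2* or *Aldh1l2* (2.78% of genes called upregulated), and glmTreat, an edgeR test against a minimum fold change, called *Shmt2* and *Mthfd1l* (0.702%). With the replicate number of the labels as a block, edgeR called 0 of the 10 (0.289%), though the labels give no pairing beyond that number. The count changed when single hearts were left out. Without WT heart 2 or WT heart 3 only *Shmt2* and *Mthfd1l* were called, and without *Smyd1-KO* heart 2 these and *Asns*, where the shares of all genes called upregulated were 0.449%, 0.656% and 0.986%. Without *Smyd1-KO* heart 3 or WT heart 1 the calls were *Shmt2*, *Mthfd1l*, *Asns* and *Pycr1*, with 1.37% and 1.81% of all genes called upregulated.

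**Figure D1:**
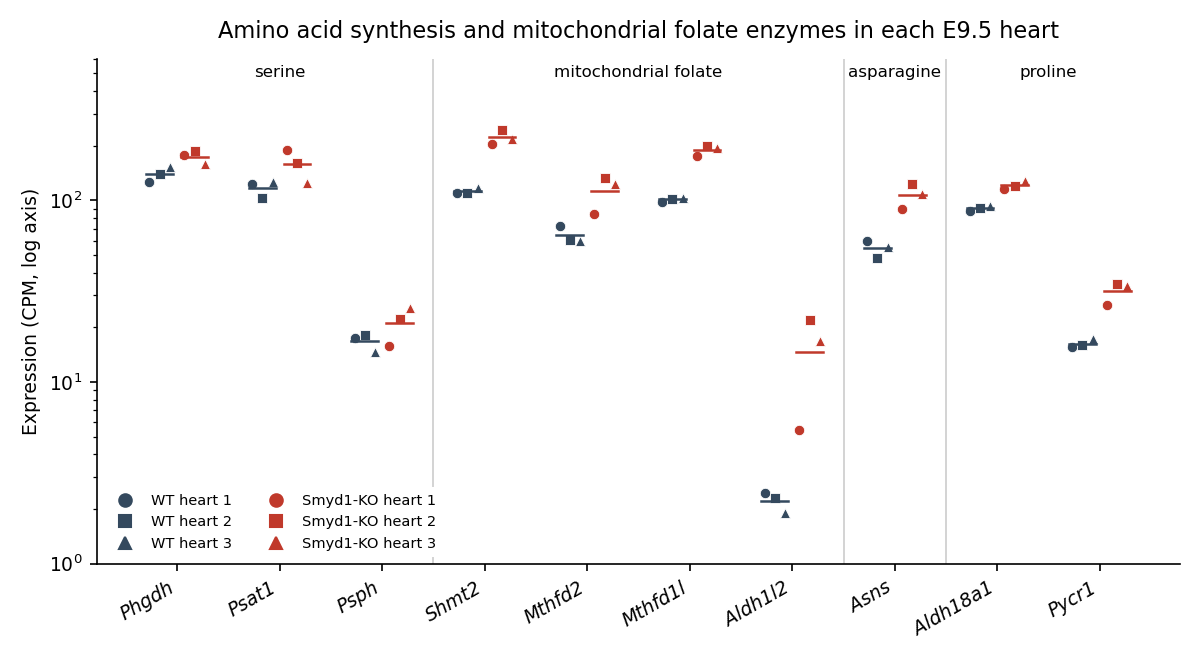
Expression of the 10 enzymes in each heart, in CPM on a log axis, with WT hearts in dark blue, *Smyd1-KO* hearts in red, a marker shape per replicate number and a line at the mean of 3 hearts. The groups overlap for *Psat1* and *Psph*, and *Smyd1-KO* heart 1 has the lowest *Aldh1l2* of the mutant hearts, at 5.43 CPM.

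The first enzyme of serine synthesis, PHGDH, oxidizes 3-phosphoglycerate. *Phgdh* stood at 179, 186 and 158 CPM in the mutants (hearts 1, 2 and 3) against 127, 139 and 152 CPM in the WT. The highest WT heart lay just under the lowest mutant heart, and the log2 fold change of 0.33 was not called (SE 0.10, edgeR adjusted *P*=0.107). PSAT1 adds the amino group from glutamate, and *Psat1* stood at 189, 161 and 125 CPM in mutant against 124, 103 and 126 CPM in WT hearts. *Smyd1-KO* heart 3 lay within the WT range and heart 1 was the highest (log2 fold change 0.43, SE 0.16, edgeR adjusted *P*=0.150). *Psph*, for the phosphatase of the last step, ranged from 15.9 to 25.6 CPM in *Smyd1-KO* and from 14.7 to 18.1 CPM in WT hearts (log2 fold change 0.34, edgeR adjusted *P*=0.303). Thus 0 of the 3 serine synthesis genes were called by edgeR or DESeq2, and 2 of the 3 were higher at an unadjusted *P* under 0.05 with either tool, as were 13.1% of the genes tested by edgeR and 8.33% of the 33106 genes with a *P* by DESeq2. *Psph* shares 452 exonic bases with *Cct6a* on the opposite strand, which had 24154 to 35766 counts per heart. The strand setting of the counting is not given in the sources used here, so reads from such a pair cannot be told apart.

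SHMT2 takes the carbon from serine in the mitochondrion and leaves glycine. *Shmt2* stood at 205, 246 and 219 CPM in the mutants (hearts 1, 2 and 3) against 109, 110 and 117 CPM in the WT. All mutant hearts were above the WT range, with a log2 fold change of 0.99 (SE 0.09, edgeR adjusted *P*=0.00365). The end of *Shmt2* overlaps *Ndufa4l2* on the opposite strand by 32 exonic bases, and *Ndufa4l2* had 1654, 2979 and 2614 counts in *Smyd1-KO* against 126 to 136 counts in WT hearts. *Ndufa4l2* was called upregulated (log2 fold change 4.37, edgeR adjusted *P*=0.000126), and reads of the pair in the shared bases cannot be told apart.

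MTHFD2 oxidizes the folate-bound carbon, and *Mthfd2* stood at 84.6, 133 and 123 CPM in the mutants (hearts 1, 2 and 3) against 72.7, 60.4 and 60.1 CPM in the WT. *Smyd1-KO* heart 1 lay close to WT heart 1, and the spread among mutant hearts was wider than for *Shmt2*. The log2 fold change was 0.81 (SE 0.17, edgeR adjusted *P*=0.0430), and the call was kept in 1 of the 6 fits made with a single heart left out (leave-one-out fits), the one without *Smyd1-KO* heart 1, with adjusted *P* from 0.00502 to 0.174. MTHFD1L releases formate for export, and *Mthfd1l* stood at 175, 200 and 195 CPM in mutant against 98.6, 102 and 103 CPM in WT hearts. The groups were well apart, with the smallest spread in WT hearts relative to the mean among the 10 genes (log2 fold change 0.91, SE 0.08, edgeR adjusted *P*=0.00317). *Shmt2* and *Mthfd1l* were called in each of the 6 leave-one-out fits.

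ALDH1L2 burns formyl-folate to carbon dioxide and yields NADPH. *Aldh1l2* stood at 5.43, 21.8 and 16.8 CPM in the mutants (hearts 1, 2 and 3) against 2.45, 2.30 and 1.89 CPM in the WT. It had the largest log2 fold change of the 10 genes, at 2.73 (SE 0.48, edgeR adjusted *P*=0.0252), and *Smyd1-KO* heart 1 lay nearer to the WT range than to the other mutant hearts. The call was kept in 1 of the 6 leave-one-out fits, again the one without *Smyd1-KO* heart 1, where the log2 fold change was 3.13. *Aldh1l2* shares 1056 exonic bases with *D10Wsu102e* on the opposite strand, which had 4262 to 4642 counts in *Smyd1-KO* and 4356 to 5487 counts in WT hearts, and reads of the pair cannot be told apart.

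ASNS makes asparagine. *Asns* stood at 90.1, 123 and 109 CPM in the mutants (hearts 1, 2 and 3) against 59.6, 48.5 and 55.3 CPM in the WT. No mutant heart reached down to the WT range (log2 fold change 0.98, SE 0.13, edgeR adjusted *P*=0.0120), and *Asns* was called in 4 of the 6 leave-one-out fits, not in those without WT heart 2 or WT heart 3. *Asns* and *Mthfd2* lie on chromosome 6, as does *Smyd1*, at 63.52 and 11.98 Mb from it. *Mat2a*, a gene of the methionine cycle with lower expression in *Smyd1-KO* hearts, lies 1.11 Mb from *Smyd1*.

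The entry enzyme of proline synthesis is encoded by *Aldh18a1*, and PYCR1 carries out the final reduction in the mitochondrion. *Aldh18a1* stood at 116, 120 and 128 CPM in mutant against 86.9, 91.4 and 93.4 CPM in WT hearts. The groups did not overlap, and the adjusted *P* of 0.0258 by edgeR passed, but the log2 fold change of 0.42 (SE 0.07) was under the limit for a call. With no limit on the fold change 7 of the 10 genes passed, against 3.32% of all tested genes that passed in this direction. *Pycr1* stood at 26.6, 34.6 and 34.0 CPM in mutant against 15.6, 16.0 and 17.2 CPM in WT hearts. The fold change of *Pycr1* was 0.96 on the log2 scale (SE 0.13, edgeR adjusted *P*=0.0111), with every mutant heart above every WT heart. *Pycr1* was called in 3 of the 6 leave-one-out fits, not in those without *Smyd1-KO* heart 2, WT heart 2 or WT heart 3.

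Relative to the WT mean on the log2 scale, *Smyd1-KO* hearts 1, 2 and 3 had medians of 0.70, 1.01 and 0.94 over the 10 genes. Heart 1 was the lowest mutant heart for 8 of the 10 genes, heart 2 the highest for 7. *Psat1* was the 1 gene for which heart 1 was the highest. Of 12 erythroid markers 11 were in the table, and their summed expression in these hearts was 40.2, 301 and 178 CPM, against 771, 1033 and 987 CPM in WT hearts 1, 2 and 3, with *Hba-x* the most abundant and 0 of the 11 genes found at 0. The median log2 fold change of the 11 was -2.49. By edgeR 10 of them were lower at an unadjusted *P* under 0.05, as were 11.9% of all tested genes. edgeR called 3 of the 11 downregulated, against 1.42% of all tested genes, and DESeq2 called 8. With edgeR the erythroid count was 9 without *Smyd1-KO* heart 1, 2 without *Smyd1-KO* heart 2, 1 without WT heart 1 and 0 without any of the other 3 hearts. The part of these markers in the enzymes' differences was not tested. Without *Smyd1-KO* heart 1 the same 6 enzymes were called, where 4.04% of all genes were called upregulated, and the median over all 10 was 0.98.

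Other marker lists gave few calls. Of 10 endothelial and endocardial markers, led by *Kdr*, 0 were called by edgeR, 3 were higher and 2 lower at an unadjusted *P* under 0.05, and DESeq2 called 1 upregulated and 2 downregulated. Their sum was 704, 839 and 1056 CPM in mutant and 691 to 829 CPM in WT hearts. Of 7 epicardial and proepicardial markers, led by *Upk3b*, 0 were called by edgeR, 2 were higher at an unadjusted *P* under 0.05 and DESeq2 called 2 upregulated, with sums of 159, 230 and 282 CPM in mutant and 125 to 155 CPM in WT hearts. Yolk sac and liver endoderm markers, led by *Afp*, summed to 35.2, 2.89 and 80.0 CPM in mutant against 1.85, 37.8 and 22.2 CPM in WT hearts, and *Apoa4*, *Alb* and *Hnf4a* were at 0 in at least 1 heart. Of the 6 that were tested edgeR called 0, with 1 higher at an unadjusted *P* under 0.05, and DESeq2 called 1. Of the 6 tested neural and neural crest markers 0 were called by edgeR, 2 were higher at an unadjusted *P* under 0.05 and DESeq2 called 1 upregulated. Of 10 cell cycle genes, 0 were called by edgeR and 1 was lower at an unadjusted *P* under 0.05, while DESeq2 called *Rrm2* downregulated. Their sum, led by *Top2a*, was 3217, 2797 and 2618 CPM in mutant and 2993 to 3435 CPM in WT hearts. Without *Smyd1-KO* heart 1, edgeR called 3 epicardial markers, 2 endothelial markers and 1 cardiomyocyte marker upregulated and 1 cell cycle gene downregulated, and without *Smyd1-KO* heart 3 it called 1 neural marker upregulated. The part of these lists in the enzymes' differences was not tested.

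Levels can be compared between genes only per length, and CPM were therefore divided by the exonic length in kilobases. In WT hearts the order was *Phgdh* (56.0 ± 5.09 CPM per kb, SD, n=3), *Shmt2* (36.1 ± 1.42), *Psat1* (27.6 ± 3.00), *Mthfd1l* (22.9 ± 0.556), *Aldh18a1* (22.2 ± 0.808), *Asns* (19.9 ± 2.04), *Mthfd2* (18.5 ± 2.07), *Pycr1* (4.13 ± 0.218), *Psph* (3.87 ± 0.420) and *Aldh1l2* (0.295 ± 0.0385). From *Mthfd1l* down to *Mthfd2* each neighbor overlapped the next over the hearts, as did *Pycr1* and *Psph*. In *Smyd1-KO* hearts *Shmt2* (71.8 ± 6.61 CPM per kb, SD, n=3) and *Phgdh* (70.2 ± 5.83) overlapped at the top, followed by *Mthfd1l* (42.9 ± 3.03), *Asns* (39.2 ± 5.97), *Psat1* (37.3 ± 7.57), *Mthfd2* (32.5 ± 7.27) and *Aldh18a1* (29.8 ± 1.52), each of which overlapped the next. *Psph* (4.91 ± 1.15) stood below *Pycr1* (8.06 ± 1.13) with no overlap. *Aldh1l2* was the lowest of the 10 in both genotypes (1.96 ± 1.12 in *Smyd1-KO* hearts).

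Several of these enzymes have a relative that works in another compartment or a parallel step. The log2 ratio of each to its relative was compared over hearts in 6 pairs, after adding 0.1 CPM to each value. The ratio of *Shmt2* to the cytosolic *Shmt1* was 1.40, 1.84 and 1.78 in *Smyd1-KO* hearts 1, 2 and 3 and 0.33, 0.44 and 0.42 in WT hearts. For *Mthfd1l* against *Mthfd1*, which encodes the cytosolic enzyme for the same reaction, it was 0.48, 1.10 and 1.34 in *Smyd1-KO* and -0.40, -0.30 and -0.46 in WT hearts. In both pairs *Smyd1-KO* heart 1 had the lowest ratio of the mutant hearts, and no mutant heart reached the WT range. The mean ratio of *Mthfd2* to *Mthfd1* was higher in *Smyd1-KO* hearts by 1.25, that of *Mthfd2* to *Mthfd2l* by 0.96, that of *Aldh1l2* to *Aldh1l1* by 1.74, and that of *Pycr1* to *Pycr3* by 1.21. In all 6 pairs every mutant heart had the higher ratio (exact permutation test, two-sided, *P*=0.1 for each, the smallest that 3 hearts against 3 allow, and 0.1 after adjustment over the 6 pairs). *Pycr3* is listed as *Pycrl*. *Aldh1l1* was under 1.4 CPM in every heart, and the ratio to it had the widest spread of the 6 in both genotypes, with an SD of 0.78 in *Smyd1-KO* and 0.59 in WT hearts.

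**Figure D2:**
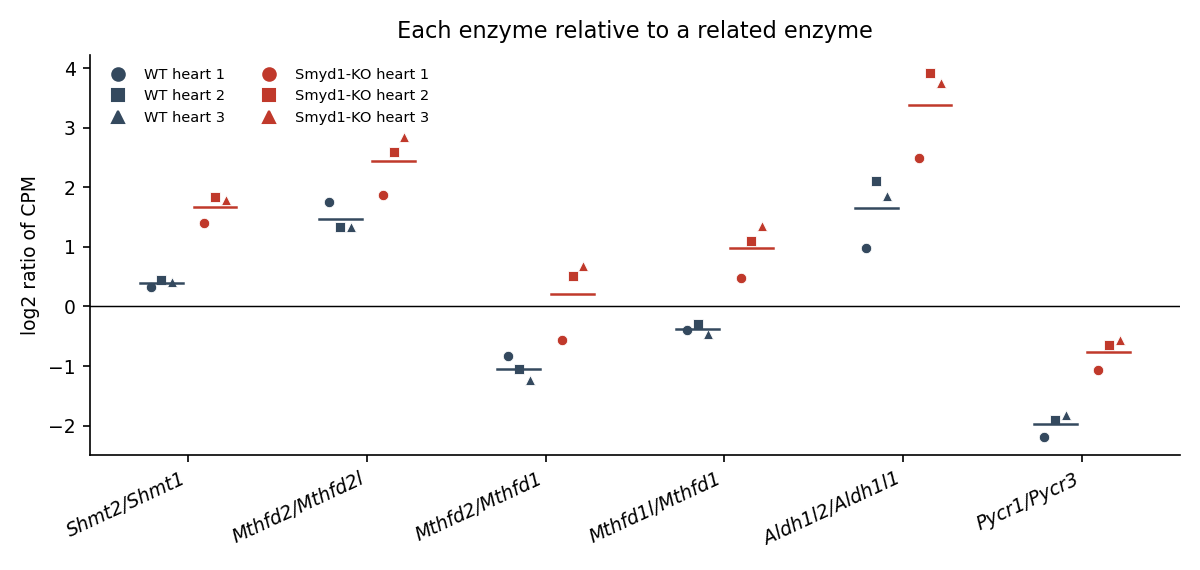
The log2 ratio of CPM between each enzyme and a related enzyme in each heart, with 0.1 CPM added to both, and a line at the mean of 3 hearts per genotype. In all 6 pairs the *Smyd1-KO* hearts (red) lie above the WT hearts (dark blue).

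Genes of the same pathways outside the 10 were read from 5 lists. Of 58 such enzymes and carriers, 57 were tested, and edgeR called 3 upregulated and 3 downregulated, the median being -0.05. Of all tested genes 2.86% were called upregulated and 1.42% downregulated. Without *Smyd1-KO* heart 1 the calls were 5 and 6, without *Smyd1-KO* heart 2, WT heart 2 or WT heart 3 they were 1 and 0, and without *Smyd1-KO* heart 3 or WT heart 1 they were 2 and 1. Of the 13 cytosolic folate genes 0 were called by edgeR or DESeq2, 11 had lower fitted values in *Smyd1-KO* hearts, and 6 were lower at an unadjusted *P* under 0.05 by edgeR, as were 11.9% of all tested genes. *Tyms*, for thymidylate synthase, stood at 60.6, 46.7 and 50.9 CPM in mutant against 69.6, 64.5 and 71.5 CPM in WT hearts (log2 fold change -0.38, edgeR adjusted *P*=0.0897), and *Mthfd1* at 125, 93.1 and 77.0 against 130, 126 and 142 CPM (log2 fold change -0.43, edgeR adjusted *P*=0.172). Both genes were lower in every mutant heart than in every WT heart, a separation found in 15.5% of tested genes. Without *Smyd1-KO* heart 1, *Mthfd1* was called downregulated. Of 13 genes of glycine cleavage and mitochondrial carriers, 1 was called, *Amt*, a subunit of the glycine cleavage system, with a log2 fold change of -0.53 (SE 0.10, edgeR adjusted *P*=0.0322). Without *Smyd1-KO* heart 1 *Gcsh* and *Gldc* were called downregulated as well, and with any of the other 5 hearts left out 0 of the 13 were called. The mitochondrial folate carrier *Slc25a32* had a log2 fold change of -0.51 (edgeR adjusted *P*=0.0851), which DESeq2 called.

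Of the 6 tested genes for proline and ornithine 0 were called by edgeR or DESeq2, and 2 were lower at an unadjusted *P* under 0.05. One of them was *Prodh*, which starts proline breakdown, at 20.7, 16.6 and 13.9 CPM in mutant against 22.8, 23.0 and 23.7 CPM in WT hearts (log2 fold change -0.44, edgeR adjusted *P*=0.131), and it was called downregulated without *Smyd1-KO* heart 1. *Gpt2*, for the mitochondrial alanine transaminase, averaged 63.6 ± 7.82 CPM (SD, n=3) in mutant and 24.3 ± 2.93 CPM in WT hearts. It had the highest log2 fold change of the 57 genes, at 1.39 (SE 0.13, edgeR adjusted *P*=0.00378). *Asl*, for argininosuccinate lyase, was the other call among the 12 genes of aspartate, glutamate and alanine (log2 fold change 0.63, edgeR adjusted *P*=0.0138), and 2 more of the 12, *Ass1* and *Gls2*, were called by DESeq2 and, without *Smyd1-KO* heart 1, by edgeR. *Gpt2* was called in each of the 6 leave-one-out fits, and *Asl* not in those without *Smyd1-KO* heart 2, WT heart 2 or WT heart 3. In serine use and the methionine cycle, *Cbs* rose (log2 fold change 1.10) from low levels of 1.16 to 1.45 CPM in WT hearts, while *Mat2a*, which makes the methyl donor S-adenosylmethionine, fell from 305, 329 and 364 CPM in WT to 205, 197 and 183 CPM in *Smyd1-KO* hearts (log2 fold change -0.77, SE 0.10, edgeR adjusted *P*=0.00991). *Sds* was also called downregulated, at under 0.8 CPM in every heart. With single hearts left out, *Sds* was called in 0 of 6 fits, *Cbs* in the fit without *Smyd1-KO* heart 1, and *Mat2a* in those without *Smyd1-KO* heart 1, *Smyd1-KO* heart 3 or WT heart 1.

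**Figure D3:**
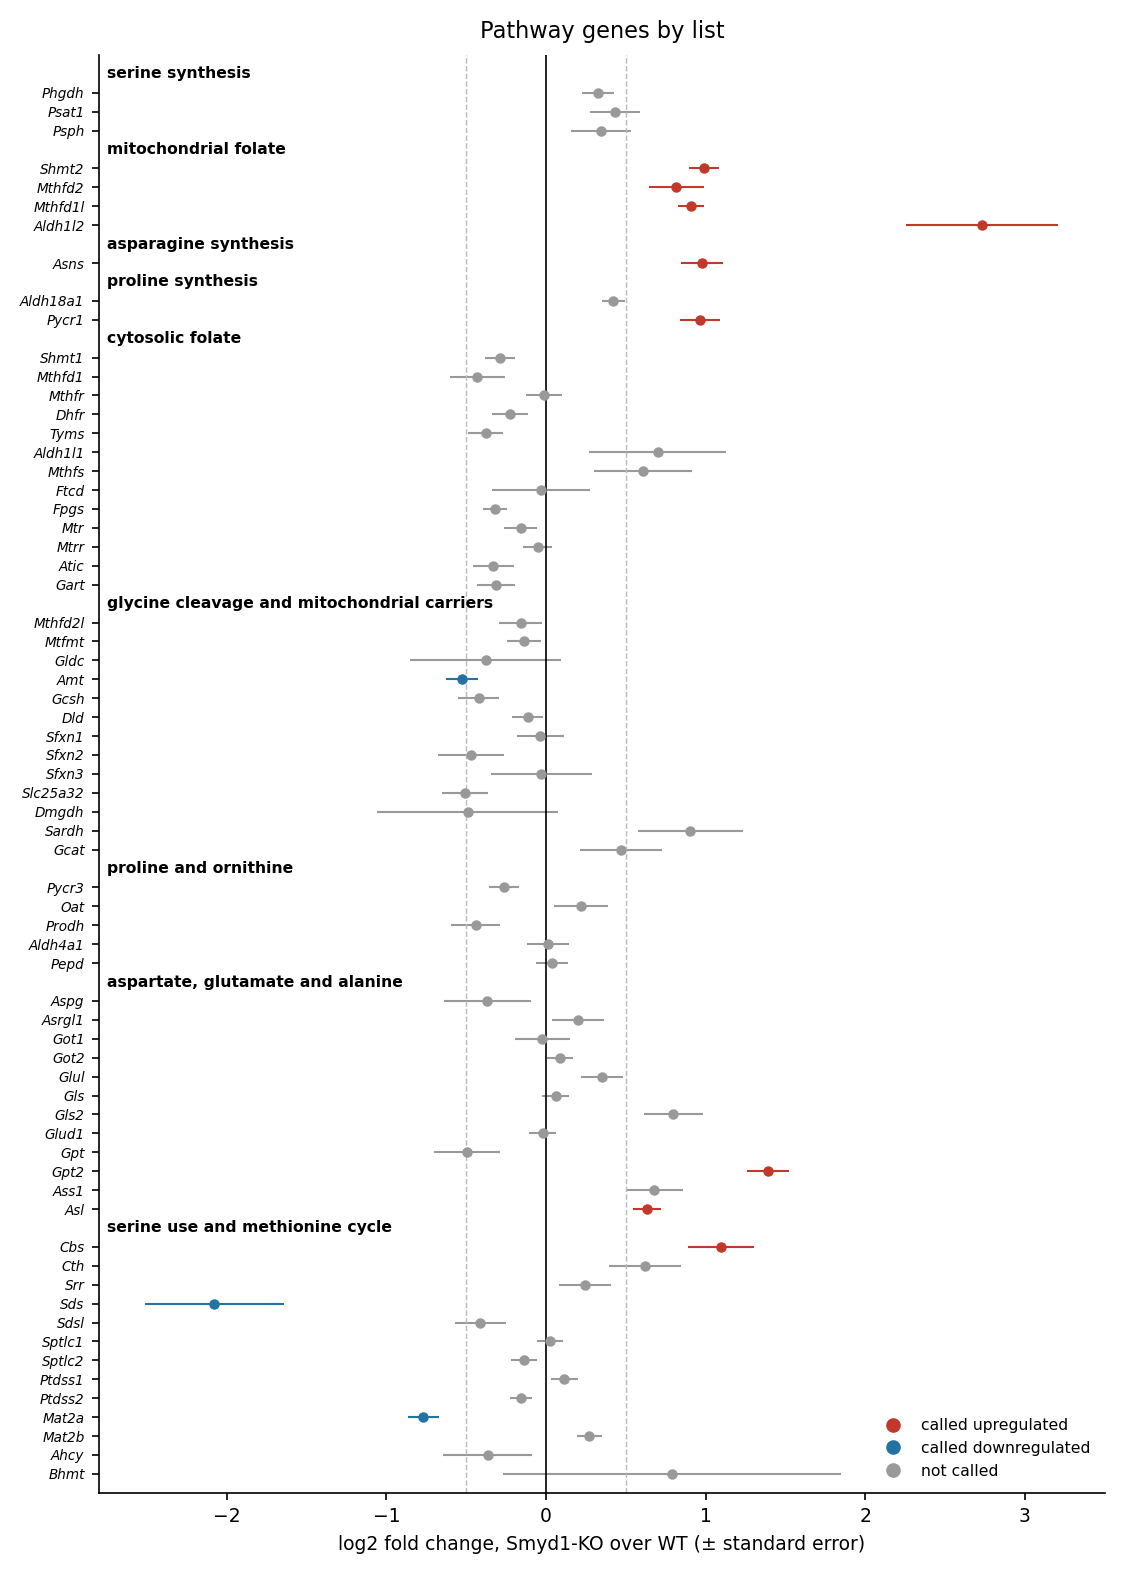
The log2 fold change of *Smyd1-KO* over WT hearts for the tested genes of the 9 lists, all but 1 of the proline and ornithine genes, with the standard error from edgeR as bars, dashed lines at -0.5 and 0.5, and colors for called genes. The mitochondrial folate genes all lie above 0.5, and 11 of the 13 cytosolic folate genes lie below 0.

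Genes of the integrated stress response were read beside the enzymes. Of 15 tested, edgeR called 9 upregulated and 0 downregulated, against 2.86% and 1.42% of all tested genes, and the median was 1.42. *Ddit4*, *Stc2* and *Vldlr* were among the 9, with log2 fold changes of 2.99, 2.98 and 2.53. *Atf4* stood at 171, 220 and 181 CPM in mutant against 140, 123 and 118 CPM in WT hearts (log2 fold change 0.59, SE 0.12, edgeR adjusted *P*=0.0389). *Trib3* and *Chac1* had larger changes, with *Trib3* at 11.4, 31.7 and 29.8 CPM in mutant and 1.80 to 2.16 CPM in WT hearts (log2 fold change 3.62), and *Chac1* averaging 15.2 ± 6.94 CPM against 0.791 ± 0.177 CPM (SD, n=3; log2 fold change 4.26). As for *Aldh1l2*, *Smyd1-KO* heart 1 was the lowest of the mutant hearts for both. *Atf5*, *Atf3*, *Cebpg*, *Nupr1*, *Eif4ebp1* and *Ppp1r15a* were tested and not called by edgeR, and DESeq2 called *Atf5* and *Eif4ebp1* upregulated. The edgeR count was 11 without *Smyd1-KO* heart 1, 4 without WT heart 2, and 6 without any of the other 4 hearts. The 4 were *Chac1*, *Ddit4*, *Stc2* and *Vldlr*, and *Atf4* was called only without *Smyd1-KO* heart 1. Of the 5 glycolytic genes on either side of 3-phosphoglycerate, *Gapdh*, *Pgk1* and *Pgam1* were called upregulated, with log2 fold changes of 0.62, 1.13 and 0.55, *Bpgm* was called downregulated (-0.72), and *Eno1* was not called (0.68, edgeR adjusted *P*=0.0613). Without *Smyd1-KO* heart 1 *Eno1* was called in place of *Pgam1*, without *Smyd1-KO* heart 2 or heart 3 *Pgk1* was the upregulated call, and without WT heart 2 or WT heart 3 there were 0 calls.

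Genes whose profile over the 6 hearts was most like the mean of the 10 enzymes were sought outside these lists, among genes with a mean of at least 10 CPM. By the root-mean-square difference of log2 CPM relative to the WT mean, the nearest were *Tpd52* (0.0667), *Crim1* (0.0748), *Mturn* (0.0918), *Rnf217* (0.0955) and *Tef* (0.0961). Their log2 fold changes ran from 0.78 for *Crim1* to 0.97 for *Tef*, a direction and size that the choice by profile fixes.

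Promoter sequences from RefSeq (GRCm38.p6, 250 bases before to 50 after a start) were matched for 9 of the 10 genes and not for *Aldh1l2*, with 2 starts for *Psat1*. They were searched on both strands. TGATGNAA, the shape of the composite element of C/EBP and ATF factors, was found in 2 of the 9, *Asns* and *Pycr1*, and in 3.97% of 32851 promoters. TGACGTCA was found in 0 of the 9 and 1.79% of promoters. The short cores ACGTG and GCGTG were found in 5 and 8 of the 9, and in 19.6% and 32.4% of promoters, and CACGTG, which contains ACGTG, in 1, *Aldh18a1*, and in 7.15% of promoters. A gene was counted if any of its starts had a match, while the shares are per promoter. The ACGTG of *Psat1* lay at 1 of its 2 starts. The 2 matches to the composite element are shown with 11 bases on either side, 5′ to 3′ on the gene's strand, with the 8 letters in capitals. The *Asns* window is chr6:7693214-7693243, reverse strand, inside an annotated exon of *Asns*, and its 8 letters lie 23 to 16 bases before the RefSeq start. The *Pycr1* window is chr11:120643833-120643862, reverse strand, outside annotated genes, with the letters 103 to 96 bases before the start.
Asns: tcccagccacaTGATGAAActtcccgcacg
Pycr1: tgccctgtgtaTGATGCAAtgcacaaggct

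For *Pycr1*, the called member whose match lies outside annotated exons, the 229 bases at chr11:120643770-120643998, reverse strand, which lie before the start and in no annotated exon, read as follows, with the same match in capitals.
Pycr1 upstream: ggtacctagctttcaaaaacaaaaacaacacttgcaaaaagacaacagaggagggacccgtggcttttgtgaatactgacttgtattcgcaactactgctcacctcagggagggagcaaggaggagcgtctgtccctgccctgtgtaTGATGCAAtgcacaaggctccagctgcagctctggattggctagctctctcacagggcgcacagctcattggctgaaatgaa
A match is a description of letters, and binding was not measured in these libraries.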

How the data were processed

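The 6 libraries (3 *Smyd1-KO*, 3 WT) were grouped by their labels. The labels give hearts across genotypes a shared number and no other pairing. The authors selected poly A RNA, aligned paired-end reads to mm10 with STAR, run through bcbio-nextgen, and deposited raw counts per gene. The counting tool, annotation release and strand setting are not given in the sources used here. A second table of normalized values was not used here.

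The counts were compared with edgeR 4.0.16 in R 4.3.3 (filterByExpr, TMM, quasi-likelihood test, Benjamini-Hochberg over 19372 genes). Standard errors are the absolute log2 fold change divided by the square root of F. DESeq2 1.42.0 and limma 3.58.1 were alternatives, as were other factors and filters, glmTreat, a replicate block and leaving out each heart. Positions and exonic lengths came from GENCODE M21 (GRCm38), in which 54495 of 54532 genes were found. Where 2 genes share a symbol, the one that passed the filter was used. Summaries used Python 3.11.15, pandas 2.3.3, scipy 1.17.1 and matplotlib 3.10.9. The biological coefficient of variation was 22.5%. The edgeR steps were tested on simulated data.

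The members and lists were chosen with earlier results of these data known. Named genes are the 10 enzymes, *Smyd1*, genes of the lists that were called or serve as examples, and the 5 tested genes of at least 10 CPM outside the lists whose profile lay nearest. Overlapping and adjacent genes were named after their values were seen.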

Additional observations from a re-analysis of the deposited data

How the results depend on the processing

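For the 6 called enzymes, 28 of 102 recomputed fold changes lost the call, and for the 10 enzymes 0 of 170 changed direction. Leaving out 1 heart at a time gave medians of 0.78 to 0.98 for the enzymes, and 97 to 1256 genes were called in all, 2 to 6 enzymes upregulated, and 1 to 5 other pathway genes upregulated and 0 to 6 downregulated, with fewer hearts per fit. glmTreat, a stricter test, called 154 genes in all, 2 enzymes, and 1 other gene upregulated and 0 downregulated. DESeq2 called 1747 genes and 5 other genes upregulated. limma voom called 4 enzymes, without *Mthfd2* and *Aldh1l2*. Chosen after seeing the data, the 4 hearts with at least 45318 *Xist* reads gave 1549 genes and the same 6 enzymes. In them 5 other genes were called upregulated and 6 downregulated. *Smyd1-KO* heart 1 had 134 *Xist* reads and WT heart 1 had 167. Y-linked reads as a term left 5 enzymes, without *Mthfd2* (2.32% of all genes upregulated).

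With the replicate block, edgeR called 59 genes, 0 enzymes, and 1 other gene upregulated and 0 downregulated. The median of the enzymes was 0.85, 8 of 10 were higher at an unadjusted *P* under 0.05 (9.90% of all genes), and the lowest adjusted *P* was 0.0522 for *Mthfd1l*. Deviations of same-numbered hearts correlated at -0.216, -0.054 and -0.182, and 0 of 6 hearts correlated best with their own number. The cause of these differences was not tested. With 1 CPM added in place of 0.1, and with each heart left out, all 6 ratios were higher in *Smyd1-KO* hearts. With the bases before the start alone, TGATGNAA was found for 2 of the 9 matched genes, ACGTG for 4 and GCGTG for 6. The shares of all promoters were then 3.45%, 16.6% and 28.2%.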

Other observations

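*Nxph4*, the nearest tested gene beyond the start of *Shmt2* on chromosome 10, lies 3029 bases away and was called upregulated (log2 fold change 4.31, SE 0.59, edgeR adjusted *P*=0.0128). *Slc4a5*, 746 bases from *Mthfd2*, was called downregulated (log2 fold change -1.44, SE 0.20, edgeR adjusted *P*=0.0123). Both were named after their values were seen, and 18 of the 20 nearest tested genes that lie on either side of the enzymes without overlapping them were not called.

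Reads of 4 Y-linked genes numbered 1989 in *Smyd1-KO* heart 1 and 9333 in WT heart 1, and 3 to 13 in the other hearts, where *Xist* had 45318 to 62547 reads. The split crosses the genotypes.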
